A study of Mus musculus with 48 samples.

Results

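Granins and prohormone processing enzymes were followed through a study of enteroendocrine cells (EECs), the hormone-secreting cells of the gut epithelium, after vertical sleeve gastrectomy (VSG) in lean mice. The set was defined by name and not by a rule on measured values, although earlier results of these data were known. It comprised the 10 genes Chga, Chgb, Scg2, Scg3, Scg5, Pcsk1, Pcsk2, Pcsk1n, Cpe and Pam of the 53465 genes in the count table. All 10 passed the filter on low counts and were among the 15126 genes tested. Cells positive for YFP under Neurod1-Cre, which marks cells that express or once expressed the transcription factor Neurod1, were sorted from 17 lean male C57BL6 mice and sequenced as 48 libraries. The top 5 cm of the small intestine (duodenum), the bottom 15 cm (ileum), and the colon with the rectum (colon) each gave 16 libraries. In each region, 5 libraries came from sham-operated mice fed ad libitum (S_al), 5 from sham-operated mice whose feeding was set to match the body weight of the VSG mice (S_wm), and 6 from mice in which 70% or more of the stomach was removed (VSG). By the study's methods the VSG mice also received weekly cyanocobalamin injections, which cannot be told apart from the surgery. Every mouse carried the Neurod1-cre-eYFP reporter, entered the protocol at about 20 weeks of age, was operated on, received liquid diet around surgery and chow thereafter, and was killed 6 weeks after surgery, about 15 min after a glucose gavage of 3 g/kg that followed an overnight fast. Each library pooled 1500 to 20000 sorted cells, so that fewer cells of a type and less RNA per cell cannot be told apart.

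Peptide hormones are made as large precursors that are sorted into dense-core granules together with granins, acidic proteins that aggregate with calcium and help to form the granule. Inside the granule the prohormone convertases PC1/3 (Pcsk1) and PC2 (Pcsk2) cut the precursors after pairs of basic residues, carboxypeptidase E (Cpe) trims the basic residues left at the new end, and peptidylglycine alpha-amidating monooxygenase (Pam) converts a terminal glycine into an amide. The convertases have small partner proteins, 7B2 (Scg5), which PC2 needs to become active, and proSAAS (Pcsk1n), an inhibitor of PC1/3. In L cells PC1/3 releases GLP-1 from proglucagon, whereas PC2 in pancreatic alpha cells releases glucagon.

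The cAMP response element (CRE, TGACGTCA) is known from granin promoters, and the printed sequences were chosen because they hold it or its short form TGACG. In the RefSeq promoter table for GRCm38.p6, which runs from 250 bases before to 50 bases after each start site, a promoter was matched for 9 of the 10 genes (not Cpe). On either strand, the 8-base element was present in Chgb, Scg2 and Pcsk1, that is 3 of 9, and in 2.03% of the 27025 genes with a promoter. The short form, which the full element contains, was present in 7 of 9 members and in 23% of all genes. The E-box CAGATG was found in 0 of 9 members and in 19.2% of all genes. The capitals mark the element or its short form in 30 bases of the gene's own strand, written 5′ to 3′, and for Pcsk2 the short form was on the opposite strand.
Chgb: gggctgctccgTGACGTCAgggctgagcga
Scg2: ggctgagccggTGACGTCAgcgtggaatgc
Pcsk1: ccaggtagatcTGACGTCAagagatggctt
Chga: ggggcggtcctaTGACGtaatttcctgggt
Pcsk2: ctggcgggcgcgCGTCAcccgggctggcgc
These bases lie at chr2:132781559-132781588 (plus strand) for Chgb, chr1:79440076-79440105 (minus) for Scg2, chr13:75089768-75089797 (plus) for Pcsk1, chr12:102554885-102554914 (plus) for Chga and chr2:143546087-143546116 (plus) for Pcsk2. The element starts 72, 68 and 78 bases before the RefSeq start site in Chgb, Scg2 and Pcsk1, and the short form 44 and 34 bases before it in Chga and Pcsk2. The windows of Chgb and Scg2 fall within an exon of a longer GENCODE M21 transcript and those of the other 3 genes in none. Along the gut Scg2 and Pcsk1 fell steeply towards the colon, whereas Chgb passed no test between regions.

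Total counts per library were 4648651 to 17182463. Of 7 enteroendocrine marker genes, all were detected, and their summed level had medians of 1612 CPM (counts scaled to a library total of 1e+06) in duodenum, 903 in ileum and 666 in the colon. Enterocyte markers (10 genes, medians 7819, 8693 and 929 CPM) and goblet markers (7 genes, medians 3802, 3696 and 9269 CPM) were also present in the sorted fractions, and their part in the regional differences was not tested. The duodenum library of S_wm mouse 27 stood apart: its enteroendocrine marker sum was 268 CPM against 1385 to 1901 in the other 15 duodenum libraries, and its enterocyte sum was 29477 CPM against 6269 to 14983. All 10 members were lowest there, at 1 part in 2.56 (Pam) to 1 part in 5.45 (Chgb) of the median of the other duodenum libraries, and several results that it moves are given with and without it. Mouse 12 has ileum and colon swapped between 2 of its label fields (the tissue field was followed), and without that pair of libraries Chga was the only member to lose a call between regions. The second sequencing index of the libraries followed the region, since D502 was used for 12 duodenum libraries only and D504 for 11 colon libraries and 1 ileum library. D501 was used for 4 duodenum, 7 ileum and 1 colon library and D503 for 8 ileum and 4 colon libraries, and the duodenum shares an index with other regions through D501 alone.

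Chromogranins A and B made up most of the members' reads in every region. Chga and Chgb together took 5.26% ± 1.73 (SD, n = 16) of all counts in duodenum, 4.34% ± 1.56 in ileum and 5.24% ± 2.05 in the colon. The other 8 members together took 0.543% ± 0.135, 0.319% ± 0.07 and 0.244% ± 0.0671. Levels were compared between genes as mean CPM per kilobase of merged exon (GENCODE M21). For members, CPM was scaled to library totals adjusted by TMM normalization, unlike the marker sums above. In the duodenum the order was Chgb (11655), Chga (6265), Cpe (603.6), Scg2 (434), Pcsk1 (167), Scg3 (129.9), Scg5 (128), Pam (68.8), Pcsk1n (45.2) and Pcsk2 (3.51). In the ileum it was Chgb (9431), Chga (6530), Cpe (379.8), Scg2 (164), Pcsk1 (135), Scg3 (91.5), Scg5 (77.5), Pcsk1n (58.9), Pam (52.2) and Pcsk2 (0.0313). In the colon it was Chgb (11023), Chga (7957), Pcsk1n (281), Cpe (203), Scg5 (87.4), Pam (76), Scg3 (40.6), Pcsk1 (20.2), Scg2 (12.6) and Pcsk2 (0.0788). Neighbours in these orders that differed by less than the larger of their SDs over 16 libraries were Pcsk1, Scg3 and Scg5 in the duodenum, Scg2 and Pcsk1 as well as Scg3, Scg5, Pcsk1n and Pam in the ileum, and Chgb and Chga, Pcsk1n and Cpe, and Scg5 and Pam in the colon. Pcsk1n moved from the ninth place in the duodenum to the third in the colon, and Pcsk1 from the fifth to the eighth.

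**Figure D1:**
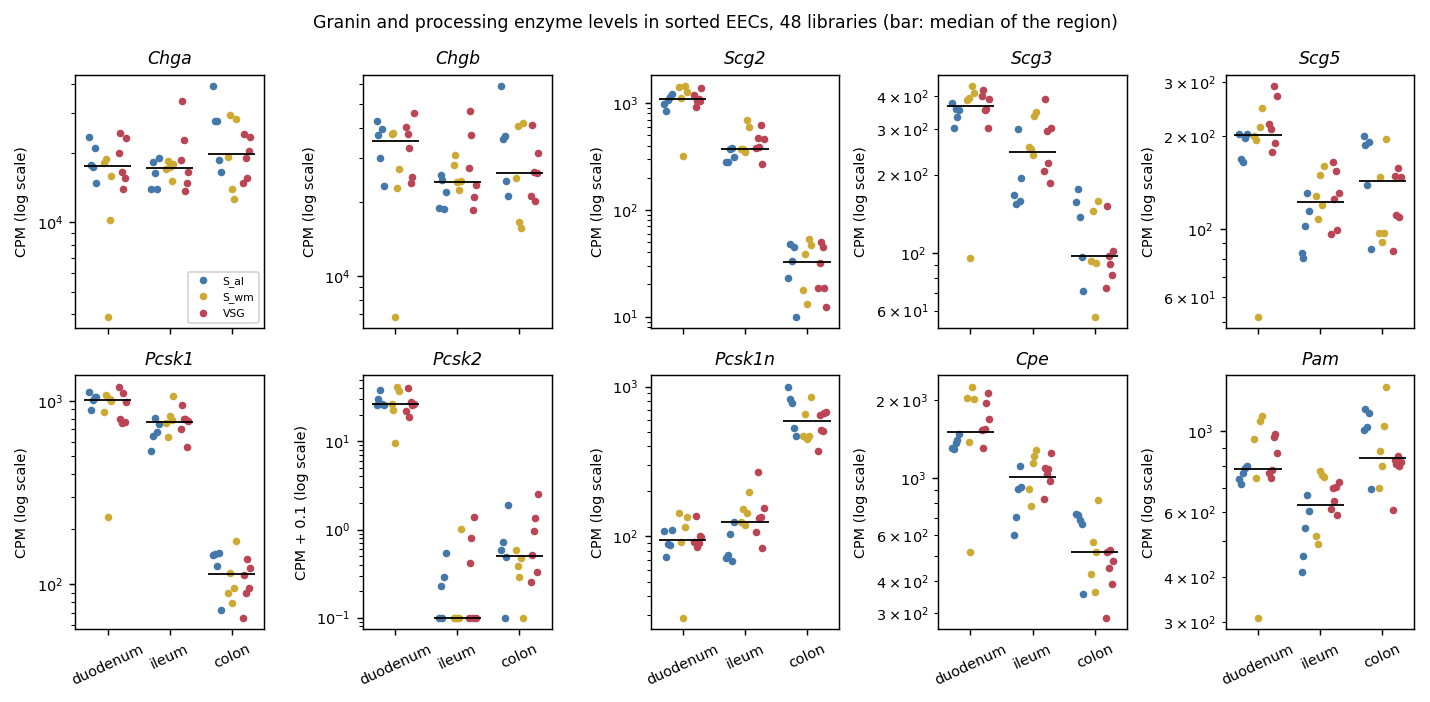
Level of each of the 10 genes in every library, with CPM on a log axis (Pcsk2 as CPM + 0.1), the 3 regions along the x axis, points coloured by surgery group and a bar at the median of the 16 libraries of a region. Scg2 and Pcsk1 in the colon lie below, and Pcsk1n in the colon above, all libraries of the other regions, and the lowest duodenum point in every panel is S_wm mouse 27.

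Between regions, 6 members were lower in the ileum than in the duodenum and 0 were higher, in a comparison in which 33.8% of all tested genes were called (17.2% higher and 16.6% lower in the ileum). Between colon and duodenum, 6 members were lower and 2 higher in the colon, where 55.0% of all genes were called (26.8% higher and 28.3% lower). Between colon and ileum, 4 members were lower and 2 higher in the colon, where 49.2% of all genes were called (23.8% higher and 25.4% lower). The median log2 fold change of the 10 members was -0.47, -1.04 and 0.22 in the 3 comparisons, beside medians of all tested genes of 0.0045, -0.015 and -0.011. Without the duodenum library of mouse 27, 8, 7 and 7 members were called. With the second index as a covariate, 2, 8 and 6 were called, and with the index as a covariate and without that library 1, 6 and 8. The ileum and duodenum calls other than Pcsk2 therefore could not be separated from the index by this fit, although all 6 had a negative log2 fold change in it once that library was left out. With that library included, the fit with the index gave Scg3 and Pam values of 0.05 and 0.06 between ileum and duodenum, and its 2 calls were Pcsk2 and Pcsk1n.

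**Figure D2:**
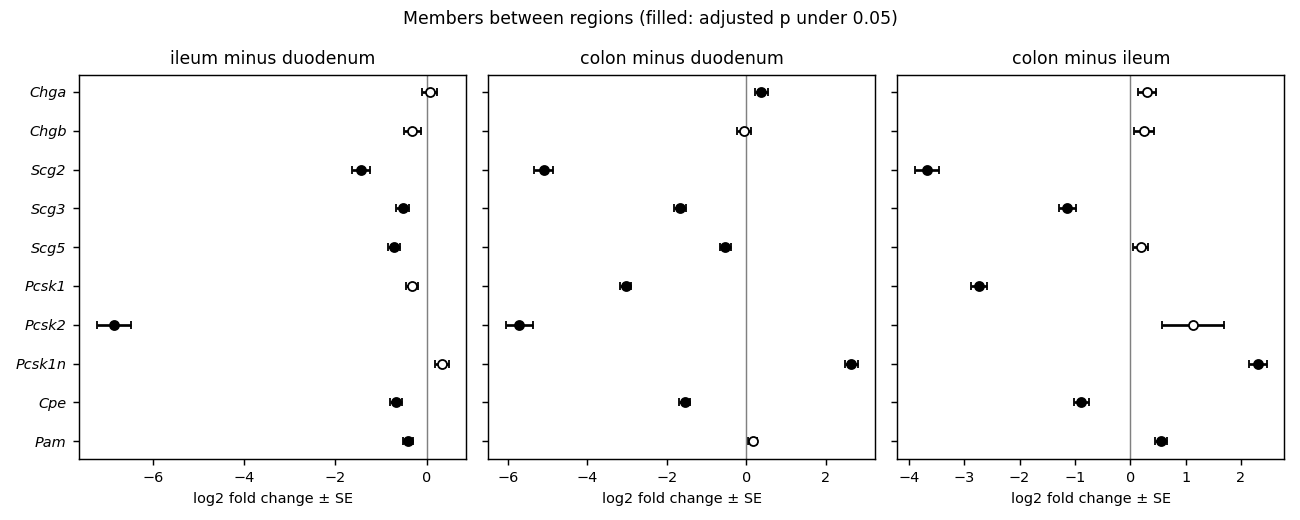
Log2 fold change ± SE of each member between regions, averaged over the 3 surgery groups (filled points: adjusted p under 0.05, edgeR). The axes differ between panels, and Pcsk2 lies farthest to the left in the comparisons with the duodenum, Pcsk1n farthest to the right in those with the colon.

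Among the granins, Scg2 fell steeply and Scg3 moderately towards the colon, whereas Chga and Chgb differed less between regions. Chga (ENSMUSG00000021194, chr12:102554969-102565028, plus strand) encodes chromogranin A, the classical marker of endocrine cells. Its lowest, median and highest library values were 3889, 17618 and 24543 CPM in duodenum, 13644, 17256 and 33718 in ileum and 12601, 19905 and 39189 in the colon. The regions overlapped. The log2 fold change was 0.07 ± 0.16 (SE) between ileum and duodenum (adjusted p = 0.781) and 0.37 ± 0.16 between colon and duodenum (adjusted p = 0.0467). The colon call was marginal: without the duodenum library of mouse 27 the value was 0.31 (adjusted p = 0.0527), without the ileum and colon libraries of mouse 12 it was 0.31 (adjusted p = 0.111), and the call held when a mouse was left out in 8 of 17 cases. With the second index as a covariate the value between colon and duodenum was larger, 1.28 (adjusted p = 0.00686), and that between ileum and duodenum was 0.80 (adjusted p = 0.114), and with the index and without the mouse 27 library they were 0.71 (adjusted p = 0.188) and 0.21 (adjusted p = 0.846). For colon against ileum the log2 fold change was 0.30 ± 0.16 (edgeR, adjusted p = 0.121). It stayed uncalled in 8 of 10 alternatives, with values of 0.22 to 0.50.

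Chgb (ENSMUSG00000027350, chr2:132781278-132795079, plus strand), chromogranin B, ran from 6834 to 45695 CPM in the duodenum (median 35137), from 18573 to 46799 in the ileum (median 24086) and from 15696 to 58892 in the colon (median 26233). Its log2 fold changes were -0.31 ± 0.18 (adjusted p = 0.191) between ileum and duodenum, -0.06 ± 0.18 (0.785) between colon and duodenum and 0.24 ± 0.18 (0.271) for colon against ileum. None passed the test, and without the duodenum library of mouse 27 the first was -0.39 (adjusted p = 0.043). The value for colon against ileum stayed uncalled in 9 of 10 alternatives, with a range of 0.14 to 0.49. With the second index as a covariate the values against the duodenum were positive, 0.48 in the ileum (adjusted p = 0.463) and 0.95 in the colon (adjusted p = 0.0826).

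Scg2 (ENSMUSG00000050711, chr1:79434669-79440120, minus strand) encodes secretogranin II, the precursor of secretoneurin. Its lowest, median and highest values were 321, 1102 and 1442 CPM in duodenum, 270.3, 374 and 686 in ileum and 9.97, 32.7 and 53.4 in the colon. All colon libraries lay below all others, while duodenum and ileum overlapped, and the only duodenum library under 686 CPM was that of mouse 27. Scg2 had a log2 fold change of -1.43 ± 0.20 between ileum and duodenum (adjusted p = 1.81e-07) and -5.10 ± 0.24 between colon and duodenum (adjusted p = 1.24e-22), a 34.3-fold difference. The colon was below the duodenum in 15 of 15 mice and below the ileum in 16 of 16. With D501 libraries alone, the ileum (7 libraries) differed from the duodenum (4 libraries) by -0.89 (log2 CPM). Without mouse 27 (3 duodenum libraries) the difference was -1.30. With D503 libraries alone the colon differed from the ileum by -4.46 (log2 CPM). The ileum and duodenum call of Scg2 held in 8 of 10 alternatives, with values of -1.57 to -0.81. It was lost with the second index as a covariate, with or without the mouse 27 library.

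Scg3 (ENSMUSG00000032181, chr9:75643189-75684056, minus strand), secretogranin III, binds chromogranin A and cholesterol-rich granule membrane. Its medians were 368, 246 and 97 CPM from duodenum to colon, and its ranges were 95.5 to 438.5, 155 to 389.5 and 56.8 to 176 CPM, so that the regions overlapped. Duodenum and colon overlapped only through the mouse 27 library, as the other 15 duodenum libraries were at 302 CPM or more. Against the duodenum, the log2 fold change of Scg3 was -0.53 ± 0.15 in the ileum (adjusted p = 0.00539) and -1.67 ± 0.15 in the colon (adjusted p = 7.59e-13). The ileum call was lost with the second index as a covariate, where the value was 0.05. The colon was the lower of the pair in 15 of 15 mice against the duodenum and in 15 of 16 against the ileum.

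Both prohormone convertases differed strongly between regions, each in its own pattern. Pcsk1 (ENSMUSG00000021587, chr13:75089826-75134861, plus strand) encodes PC1/3. Its lowest, median and highest values were 234, 1009.9 and 1193 CPM in duodenum, 532, 768 and 1058 in ileum and 65.7, 114 and 172 in the colon. The colon values lay below all others without overlap. The log2 fold change between colon and duodenum was -3.04 ± 0.14 (adjusted p = 1.94e-23, 8.22-fold lower) and that between colon and ileum -2.73 ± 0.14 (adjusted p = 1.54e-21), each with the colon lower in every mouse that had both libraries. Between ileum and duodenum it was -0.31 ± 0.13 (adjusted p = 0.0663), and without the duodenum library of mouse 27 it was -0.39 (adjusted p = 0.00248). With the second index as a covariate the value had the other sign, 0.28, and was not called. Within D501 the ileum differed from the duodenum by 0.11 with the mouse 27 library and by -0.42 without it (log2 CPM).

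Pcsk2 (ENSMUSG00000027419, chr2:143546156-143816285, plus strand), which encodes PC2, was a duodenal transcript at a low level. Its lowest, median and highest values were 9.54, 26.4 and 41.4 CPM in duodenum, 0, 0 and 1.28 in ileum and 0, 0.400 and 2.40 in the colon. In counts, the duodenum libraries held 66 to 550 reads each, the ileum libraries 0 to 7 and the colon libraries 0 to 12. In the ileum 9 of 16 libraries had 0 reads, and in the colon 2 of 16. By unadjusted library totals, used also for the sums below, 3 reads would be 0.261 to 0.645 CPM in ileum and colon libraries. Summed over libraries, 3861 reads in duodenum, 27 in ileum and 60 in the colon gave 28.8 CPM (95% exact Poisson interval 27.9 to 29.8), 0.256 (0.169 to 0.373) and 0.567 (0.433 to 0.73). The duodenum was thus 113-fold above the ileum (77.3 to 171) and 50.9-fold above the colon (39.4 to 66.8), intervals that cover counting error only. No library of the ileum or colon overlapped with the duodenum, and the calls held with the index as a covariate (adjusted p = 2.43e-10 and 1.42e-05). Between colon and ileum the log2 fold change was 1.14 ± 0.56 (adjusted p = 0.0869). It became 2.49 without mouse 31 (adjusted p = 0.00251) and 1.40 without mouse 28 (adjusted p = 0.0366), the mice whose ileum libraries held 7 reads each. The exons of Pcsk2 share 260 and 99 bases with the antisense genes Pcsk2os1 and Pcsk2os2, which held 245 and 346 reads in duodenum, 9 and 115 in ileum and 11 and 5 in the colon, and whether the counting used the strand is not given in the sources used here.

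The partners of the convertases differed from each other in their regional pattern. Scg5 (ENSMUSG00000023236, chr2:113776362-113829121, minus strand), the PC2 chaperone 7B2, had medians of 202, 122 and 143 CPM from duodenum to colon, with ranges of 51.9 to 291, 80.7 to 165 and 85.1 to 199.5 that overlapped. Against the duodenum, its log2 fold change was -0.71 ± 0.14 in the ileum (adjusted p = 6.98e-05) and -0.53 ± 0.14 in the colon (adjusted p = 0.00125), and the colon and ileum differed by 0.19 ± 0.14 (adjusted p = 0.282). Between colon and duodenum the call was lost with the second index as a covariate, where the value was 0.22 (adjusted p = 0.673), and with the index and without the mouse 27 library, where it was -0.37 (adjusted p = 0.459). The call between ileum and duodenum was lost in the same 2 fits, with values of -0.85 to -0.09 over 10 alternatives. Scg5 transcripts were therefore present at 80.7 to 199.5 CPM in every ileum and colon library, including those with 0 Pcsk2 reads.

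Pcsk1n (ENSMUSG00000039278, chrX:7919822-7924410, plus strand), the PC1/3 inhibitor proSAAS, rose towards the colon. Its lowest, median and highest values were 28.8, 95.3 and 143 CPM in duodenum, 69, 125 and 268 in ileum and 373, 586 and 995 in the colon, and all colon libraries lay above all others. The log2 fold change was 2.64 ± 0.16 between colon and duodenum (adjusted p = 1.15e-18, 6.22-fold) and 2.31 ± 0.16 for colon against ileum (adjusted p = 1.3e-16, 4.95-fold), with the colon higher in 15 of 15 and 16 of 16 mice. Between ileum and duodenum it was 0.33 ± 0.15 (adjusted p = 0.0933), and with the mouse as a fixed replicate block 0.37 (adjusted p = 0.0403). Within D503 the colon exceeded the ileum by 2.26 (log2 CPM). The exons of Pcsk1n share 135 bases with Eras on the opposite strand, which held 23 reads over all libraries.

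Of the enzymes of the last maturation steps, Cpe fell towards the colon and Pam had its lowest median in the ileum. Cpe (ENSMUSG00000037852, chr8:64592542-64693054, minus strand) had medians of 1504, 1006 and 518 CPM, and its ranges, 519 to 2250.0, 604 to 1282 and 288 to 824, overlapped. The duodenum overlapped the other regions only through the mouse 27 library, as the other 15 duodenum libraries were at 1299 CPM or more. Against the duodenum, the log2 fold change of Cpe was -0.67 ± 0.13 in the ileum (adjusted p = 7.75e-05) and -1.56 ± 0.14 in the colon (adjusted p = 4.43e-14), the latter in 15 of 15 mice. The ileum call of Cpe was lost with the second index as a covariate, and its values were -0.80 to -0.13 over 10 alternatives. Pam (ENSMUSG00000026335, chr1:97795114-98095646, minus strand) had its lowest median in the ileum, 629 CPM, against 787 in the duodenum and 845 in the colon. The log2 fold change was -0.40 ± 0.11 between ileum and duodenum (adjusted p = 0.00338), 0.15 ± 0.11 between colon and duodenum (0.239) and 0.56 ± 0.11 for colon against ileum (3.25e-05), the latter with the colon higher in 15 of 16 mice. Between ileum and duodenum the call of Pam was lost with the second index as a covariate, where the value was 0.06. Its exons share 188 bases with B230216N24Rik on the same strand, which held 1888 reads over all libraries.

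Ratios of members within a library do not depend on how the library was scaled, and they were compared between regions within mice with an exact two-sided sign-flip permutation test (5 ratios, 30 tests with those between surgery groups, Benjamini-Hochberg adjusted). The ratio of Pcsk1n to Pcsk1 counts had a geometric mean of 0.106 in duodenum, 0.163 in ileum and 5.45 in the colon. Its log2 value rose by 5.71 ± 0.41 (SD of the difference, 15 mice) from duodenum to colon, and the colon was 5.06 ± 0.43 (16 mice) above the ileum, itself 0.65 ± 0.38 (15 mice) above the duodenum. All mice showed the same direction in the 3 comparisons, and the exact adjusted p was 0.000183 in each, with raw p at the smallest value these tests can give. In the duodenum the mouse 27 library did not stand apart in this ratio, which was -3.70 to -2.54 over the 16 libraries.

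**Figure D3:**
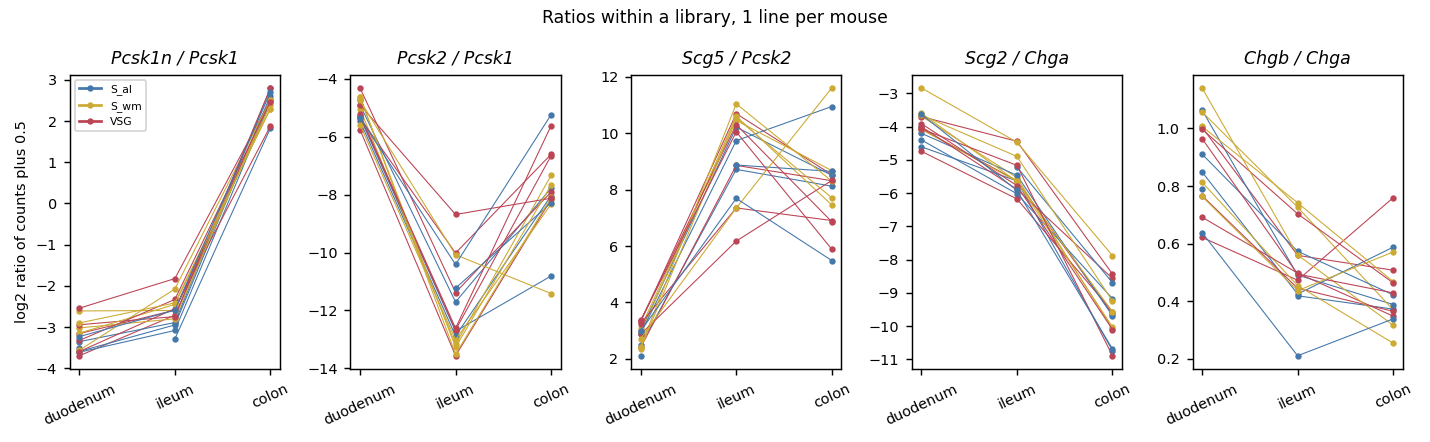
Log2 ratio of counts plus 0.5 between members in each library, with 1 line per mouse coloured by surgery group and the regions along the x axis. The Pcsk1n to Pcsk1 ratio lies below 0 in all duodenum and ileum libraries and above 0 in all colon libraries, and values involving Pcsk2 in ileum and colon rest on 0 to 12 reads.

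The log2 ratio of Scg2 to Chga changed by -1.54 ± 0.42 from duodenum to ileum and by -5.68 ± 0.80 from duodenum to colon (15 mice), in every mouse (exact permutation, adjusted p = 0.000183 for both). The ratio of the chromogranins shifted as well, and the geometric mean of Chgb over Chga was 1.84 in duodenum, 1.43 in ileum and 1.35 in the colon. Against the duodenum, the log2 ratio differed by -0.37 ± 0.12 in the ileum in 15 of 15 mice (exact permutation, adjusted p = 0.000183) and by -0.45 ± 0.23 in the colon in 14 of 15 (exact permutation, adjusted p = 0.000282), and colon and ileum differed by -0.08 ± 0.18 (16 mice, exact permutation, adjusted p = 0.158). The Scg5 to Pcsk2 ratio was 7.19 in duodenum, 626 in ileum and 282 in the colon as geometric means of counts plus 0.5, and was higher than in the duodenum in 15 of 15 mice for both regions (exact permutation, adjusted p = 0.000183). The Pcsk2 to Pcsk1 ratio was 0.0297, 0.000256 and 0.00426, and was lower in the ileum and the colon than in the duodenum (exact permutation, adjusted p = 0.000183 and 0.000282). It was higher in the colon than in the ileum in 15 of 16 mice (exact permutation, adjusted p = 0.00025), where Pcsk1 itself was lower. With 0 to 12 Pcsk2 reads per ileum or colon library, ratios with Pcsk2 vary with the number added to the counts. Under 4 alternatives, among them 5 added to the counts, log2 Pcsk2 to Pcsk1 differed from the duodenum by -6.86 to -4.48 in the ileum. In the colon it differed by -2.80 to -1.34. For Scg5 to Pcsk2 the ranges were 4.02 to 6.44 and 3.79 to 5.3.

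Other genes of peptide maturation changed in different directions along the gut. Of 7 further proprotein convertases, the colon had 3 at a higher and 2 at a lower level than the duodenum, and the ileum 2 higher and 1 lower. Over all tested genes 26.8% were higher and 28.3% lower in the colon, and 17.2% and 16.6% in the ileum. Pcsk7, a convertase of the constitutive pathway, was at 44.9 ± 6.28 CPM (SD, n = 16) in duodenum and 93.5 ± 14.6 in colon (log2 fold change 1.05 ± 0.08, adjusted p = 3.01e-15). Of 3 further basic carboxypeptidases tested (of 6 listed), Cpd, the trans-Golgi relative of Cpe, rose from 176 ± 23.3 to 349.9 ± 58.0 CPM between duodenum and colon (log2 fold change 0.98 ± 0.08, adjusted p = 8.05e-16), opposite in direction to Cpe, while Cpn1 was lower (-1.12) in the colon.

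Of 13 other peptide-modifying enzymes tested, 9 fell and 2 rose from duodenum to colon, where 28.3% of all tested genes fell and 26.8% rose. From duodenum to ileum 6 of them fell and 0 rose, where 16.6% of all tested genes fell and 17.2% rose. Tpst1, which sulfates tyrosines in peptides such as CCK, was at 61.2 ± 13.6 CPM in duodenum and 16.6 ± 5.07 in ileum (log2 fold change -1.88 ± 0.15, adjusted p = 5.16e-14). Mboat4, which acylates ghrelin, fell from 3.79 to 0.826 CPM between the same regions (-2.36 ± 0.43). Dpp4 and Mme, peptidases of the enterocyte brush border, were lower in the colon (-2.11 and -6.02), as were all 10 enterocyte markers. Of 5 genes that supply copper or ascorbate for Pam, 2 rose and 2 fell from duodenum to colon, among them Cyb561, the granule membrane cytochrome that regenerates ascorbate, at 54.5 ± 7.34 and 71.3 ± 8.27 CPM (0.39 ± 0.07, adjusted p = 4.52e-06). Of 6 granule genes, 0 rose and 2 fell from duodenum to colon. These were Slc18a2, the vesicular monoamine transporter VMAT2, at 37.1 and 1.41 CPM (-4.69 ± 0.27) and Ptprn2, a granule membrane protein (-0.80 ± 0.13). Vgf, a further granin gene, was at 44.1, 45.7 and 42.6 CPM from duodenum to colon.

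Peptide hormones that these enzymes process also differed between regions. Of 11 substrates, 7 fell and 2 rose from duodenum to colon, where 28.3% of all tested genes fell and 26.8% rose. Cck had a log2 fold change of -7.38 ± 0.28 and Ghrl one of -9.59 ± 0.39, and Insl5, the colonic L cell hormone, was at 0.0795 CPM in the duodenum and 155 in the colon. Nts, which encodes neurotensin, was at 534 CPM in duodenum, 6298 in ileum and 381 in colon. Of the enteroendocrine markers, 5 of 7 fell and 0 rose from duodenum to colon, among them Neurod1 itself (-1.35 ± 0.15, adjusted p = 4.91e-11). The part of the cell composition of the sorted fraction in the regional differences of the members was not tested.

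Region accounted for 93.6% of the sum of squares of log2 CPM of Scg2, 92.3% of Pcsk2, 91.8% of Pcsk1 and 86% of Pcsk1n, as a description over the 48 libraries. It accounted for 71.6% of that of Cpe, 70.5% of Scg3, 32.4% of Pam, 31.3% of Scg5, 9.92% of Chga and 3.9% of Chgb. Surgery group within region accounted for 0.336% (Scg2) to 18.1% (Chga). These shares were not tested or set against those that chance would give, and they include the duodenum library of mouse 27. For Chga 72% of the sum of squares lay within groups. The spread that remained within a group had an SD of 0.33 (Pam) to 0.81 (Pcsk2) in log2 CPM.

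The genes most like each member over the 48 libraries, by Pearson's r of log2 CPM, differed between members, and these values, which share the regional differences, are given as a description. They were Tm4sf4, Rbp4 and Rgs2 for Scg2 (r = 0.977, 0.972 and 0.9702), Tpbg, Mapk4 and Rcn1 for Pcsk1 (0.980, 0.979 and 0.976), Nkx6-3, Hip1 and Fbxl7 for Pcsk2 (0.935, 0.934 and 0.931), and Wif1, Hk1 and Man1c1 for Pcsk1n (0.963, 0.959 and 0.956). Gnao1, Peg3 and Pax6 were closest to Scg3 (0.957, 0.955 and 0.954), Lgals3bp, Aplp1 and Rfx6 to Cpe (0.963, 0.962 and 0.959), Prnp, Fxyd3 and Tusc3 to Scg5 (0.898, 0.896 and 0.893), and Emb, Cadps and Syt14 to Pam (0.854, 0.839 and 0.835). Rap1gap2, Chgb and Samd14 were closest to Chga (0.894, 0.894 and 0.881), and Chga, Ppl and Slc18a1 to Chgb (0.894, 0.862 and 0.859).

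Once the 9 group means were removed, other members appeared among the closest genes. Chgb was closest to Chga (r = 0.969), Scg5 to Pcsk1 (0.932) and Pam to Cpe (0.951), each the first of all tested genes in both directions of the pair. The closest genes named here include the duodenum library of mouse 27 and are not given without it. Man1c1, Syp and Syt7 were closest to Pcsk1n (0.933, 0.906 and 0.905), Cplx2, Gm609 and Celf3 to Scg3 (0.918, 0.915 and 0.913), and Etv1, Map2 and Scgn to Scg2 (0.835, 0.834 and 0.798). Members other than Pcsk2 went up and down together between libraries of a group: over the 36 pairs of members other than Pcsk2 the median r was 0.718 (0.331 to 0.969), and 0.578 (0.0106 to 0.952) without the duodenum library of mouse 27. For Pcsk2 the r with the other 9 members was -0.0527 to 0.204. Libraries of a mouse, and the share of EECs in a library, are common to these points.

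The effect of surgery was asked by comparing VSG mice with both sham groups, and no member passed the test in any of the 12 surgery contrasts or in the surgery by region interaction. Averaged over regions, 0 of 10 members were called between VSG and S_al, where 0.0% of all tested genes were called. By edgeR 837 genes had an unadjusted p under 0.05 in that contrast, none of them a member, and DESeq2 called 16 genes. Between VSG and S_wm 0 of 10 members were called against 0.245% of all genes, and between S_wm and S_al 0 of 10 against 0.0529%. Apart from Pcsk2, log2 fold changes of the members averaged over regions were -0.09 ± 0.13 (Pcsk1) to 0.16 ± 0.15 (Pcsk1n) between VSG and S_al, -0.11 ± 0.19 (Scg2) to 0.21 ± 0.16 (Chga) between VSG and S_wm, and -0.25 ± 0.17 (Chga) to 0.24 ± 0.20 (Scg2) between S_wm and S_al. Pcsk2, with the widest errors, had values of 0.58 ± 0.44 (adjusted p = 0.996), 0.80 ± 0.44 (adjusted p = 0.556, unadjusted 0.0721) and -0.22 ± 0.58 (adjusted p = 0.969) in the 3 contrasts, and of 1.59 ± 0.80 between VSG and S_wm in the colon (adjusted p = 1, unadjusted 0.0546), where libraries held 0 to 12 reads. Each contrast shares a group with the others. The fit took the libraries of a mouse as independent, although surgery was given to the mouse. With counts summed per mouse 0 members were called, and Pcsk1n between VSG and S_al was -0.29.

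**Figure D4:**
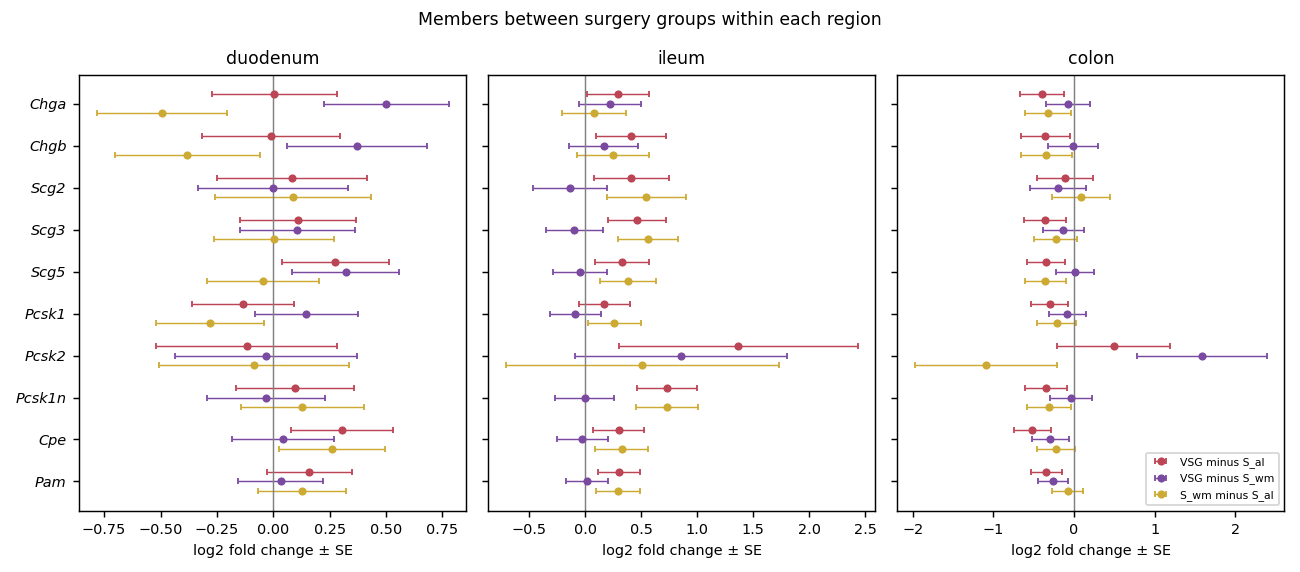
Log2 fold change ± SE of each member between surgery groups within the duodenum, ileum and colon, from the fit over all 48 libraries. The axes differ between panels, no point passed the test, and the widest error bars belong to Pcsk2 in ileum and colon, where libraries held 0 to 12 reads.

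Within regions, 0 of 10 members were called in each of the 9 contrasts, where 0.0% (VSG and S_al, each region), 0.225%, 0.0463% and 0.0595% (VSG and S_wm in duodenum, ileum and colon), and 0.0%, 0.0% and 0.0132% (S_wm and S_al) of all genes were called. Without the duodenum library of mouse 27, the 0.225% between VSG and S_wm in the duodenum became 0.0%. The lowest unadjusted p of a member was for Pcsk1n in the ileum. There the 5 S_al libraries were at 69, 71.7, 75.6, 104 and 125 CPM, the 5 S_wm libraries at 119, 125, 144, 151 and 198 CPM, and the 6 VSG libraries at 84 to 268 CPM with a median of 134. S_wm and VSG were the higher groups and both overlapped S_al. The log2 fold change was 0.73 ± 0.27 between VSG and S_al (adjusted p = 0.62, unadjusted 0.00914) and 0.73 ± 0.28 between S_wm and S_al (adjusted p = 0.538, unadjusted 0.0112), contrasts that share the S_al libraries. Between VSG and S_wm it was -0.005 ± 0.26 (adjusted p = 0.9995). The joint test of the surgery by region interaction gave Pcsk1n an unadjusted p of 0.0498 and an adjusted p of 1 by edgeR, and 0.0% of all genes were called (741 genes with an unadjusted p under 0.05, 9 genes called by DESeq2).

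Cpe in the colon was at 356.5, 663, 687, 719 and 722 CPM in the S_al mice and at 288 to 524 CPM, with a median of 461, in the 6 VSG mice. The groups overlapped through the S_al library of mouse 32. VSG and S_al differed by a log2 fold change of -0.52 ± 0.23 (adjusted p = 0.777, unadjusted 0.0265). In the ileum all 10 members had positive and in the colon 9 of 10 negative log2 fold changes between VSG and S_al, with medians of 0.37 and -0.35. The same counts held between S_wm and S_al, with medians of 0.35 and -0.27, contrasts that share the S_al libraries, while between VSG and S_wm the medians were -0.016 and -0.081. The enteroendocrine marker sum moved with them: its median was 891 CPM in S_al, 1113 in S_wm and 1021 in VSG ileum, and 940.05 in S_al, 662 in S_wm and 607 in VSG colon. The part of this marker level in those directions was not tested.

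In the full data the ratios of members did not pass the test between surgery groups either. The lowest p of the 15 tests over mice with all 3 regions were for Pcsk2 to Pcsk1 between VSG and S_wm (log2 difference 0.76 ± 0.30, SE, 11 mice, exact permutation p = 0.0476, adjusted 0.0952) and for Pcsk1n to Pcsk1 between S_wm and S_al (0.19 ± 0.09, 9 mice, exact permutation p = 0.0476, adjusted 0.0952). Each rests on 1 mouse for its side of the threshold: without VSG mouse 11 the first was 1.01 (exact permutation, adjusted p = 0.0159), and without S_al mouse 32 the second was 0.25 (exact permutation, adjusted p = 0.0383). The Chgb to Chga ratio differed by 0.04 ± 0.07 between VSG and S_al (10 mice, exact permutation p = 0.567, adjusted 0.654). All mice of a region followed the regional order of the Pcsk1n to Pcsk1 ratio whatever their surgery group, with S_al, S_wm and VSG colon libraries all above the libraries of both other regions.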

How the data were processed

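Gene-level counts of 48 RNA-seq libraries (SMARTer stranded total RNA-seq, single-end) were used as the authors deposited them. Per the labels and the study's methods, reads were aligned with STAR 2.5.1 to GRCm38 and counted without normalization, and use of the strand is not given in the sources used here. Total counts were 4648651 to 17182463 per library. Replicates are mice, and groups came from the sample labels. For mouse 12 the ileum and colon codes in 2 label fields are crossed, and the tissue field was used.

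Genes were filtered with filterByExpr, scaled by TMM and fitted with edgeR 4.0.16 (quasi-likelihood, 9 group means, robust) in R 4.3.3. P-values were adjusted by Benjamini-Hochberg over 15126 genes with a threshold of 0.05, and SE is the log2 fold change over the root of F. CPM values of the members are counts scaled to a TMM-adjusted library total of 1e+06, and log2 CPM used a prior count of 2. Marker sums, summed Pcsk2 counts and the level of 3 reads used unadjusted library totals. The fitting was tested on simulated data. Ratios used counts plus 0.5 and exact permutation tests over mice (Python 3.11.15, scipy 1.17.1). Gene coordinates and exon lengths came from GENCODE M21.

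Libraries of a mouse are paired by the animal. Over 46 same-mouse pairs, the correlation of deviations from group means had a median of 0.111 (-0.0704 to 0.391), against -0.0087 for different mice. Blocked fits (fixed, or random with limma 3.58.1) were alternatives, as were DESeq2 1.42.0, other scalings, no filter, counts summed per mouse, single regions, the second index as a covariate, 5 added to counts in ratios, and leaving out each mouse, the duodenum library of mouse 27 or the ileum and colon libraries of mouse 12. The index together with leaving out the mouse 27 library was chosen after seeing the data.

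The members, gene lists and tests were chosen with earlier results of these data known. All members were named. Of the other lists, up to 3 genes per list and contrast with the lowest p among those past the threshold were eligible to be named, and Vgf and Neurod1 were named outside this rule after their values were seen. The 3 most similar tested genes per member were named by Pearson's r.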

Additional observations from a re-analysis of the deposited data

Results flagged for a closer look

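The 10 members were searched in 9 groups each for a library far from the rest of its group by Dixon's criterion, 90 groups in all, and 10 were flagged, where chance flags about 1 in 20 groups (4.5 of 90). The members share their libraries and move together, so the flags are not independent and their number is no test. The duodenum library of S_wm mouse 27 was far below the other 4 S_wm libraries for Scg2 (321.1 CPM against 1120 to 1442), Scg3 (95.53 against 388.7 to 438.5), Scg5 (51.89 against 193.8 to 247.3) and Pcsk1 (233.8 against 873.4 to 1082). Its enteroendocrine marker sum was also the lowest of the duodenum, and the part of that in these values was not tested.

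In the ileum, Scg3 was high in S_al mouse 19 (298.8 CPM against 154.9 to 194.6), and Pcsk2 was detected in S_wm mouse 31 (0.9156 CPM) and at 0 in the other 4 S_wm libraries. Mouse 18 of the VSG group was high for Scg3 in the colon (150.9 CPM against 73.25 to 101.8) and for Pcsk1n in the duodenum (136.1 against 84.8 to 99.98). In the colon, Cpe was low in S_al mouse 32 (356.5 CPM against 662.6 to 722.1) and Pam in VSG mouse 11 (608.9 against 804.1 to 856.6).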

How the results depend on the processing

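No member was called in a surgery contrast or the interaction under any alternative run, and Scg2, Pcsk1, Pcsk2 and Pcsk1n kept their direction between colon and duodenum under all of them. Read depth limits Pcsk2 outside the duodenum, where libraries held 0 to 12 reads. The second index follows the region, and the cause of the changes below was not tested. With the mouse as a fixed replicate block, Pcsk1n between ileum and duodenum passed the test (0.37, adjusted p = 0.0403). Chga and Chgb for colon against ileum and Pam between colon and duodenum stayed uncalled in 8, 9 and 9 of 10 alternatives.

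Without the ileum and colon libraries of mouse 12, reversed log2 fold changes were 0.016 (Chga between VSG and S_al) and 0.00085 (Scg5 between S_wm and S_al), and the percentages of tested genes called were 0.00648 between S_wm and S_al in the ileum and 0.0259 between VSG and S_wm in the colon. With total counts only, reversed log2 fold changes were -0.045 (Chga between ileum and duodenum), -0.0011 (Cpe between VSG and S_al) and 0.0057 (Scg5 between S_wm and S_al), and the percentages of tested genes called were 0.0264 between VSG and S_al, 0.0132 between VSG and S_al in the ileum, 0.0132 between VSG and S_wm in the colon and 0.0793 between VSG and S_wm in the duodenum. Without the duodenum library of mouse 27, reversed log2 fold changes were -0.0070 (Chga between ileum and duodenum), 0.0021 (Pcsk1 between S_wm and S_al) and 0.072 (Scg5 between S_wm and S_al), and the percentages of tested genes called were 0.00647 between S_wm and S_al in the ileum, 0.0388 between VSG and S_al, 0.0906 between VSG and S_wm in the colon and 0.0 between VSG and S_wm in the duodenum. With counts summed per mouse, reversed log2 fold changes were -0.089 (Chgb between VSG and S_al), 0.040 (Cpe between VSG and S_wm), 0.091 (Pcsk1 between VSG and S_wm), -0.18 (Pcsk1n between S_wm and S_al), -0.29 (Pcsk1n between VSG and S_al), -0.12 (Pcsk2 between VSG and S_al), 0.068 (Scg2 between VSG and S_wm) and 0.044 (Scg3 between VSG and S_wm), and the percentages of tested genes called were 0.0 between S_wm and S_al and 0.0296 between VSG and S_wm. With the second index as a covariate, reversed log2 fold changes were 0.95 (Chgb between colon and duodenum), 0.48 (Chgb between ileum and duodenum), 0.061 (Pam between ileum and duodenum), 0.28 (Pcsk1 between ileum and duodenum), 0.053 (Scg3 between ileum and duodenum) and 0.22 (Scg5 between colon and duodenum), and the percentages of tested genes called were 28 between colon and duodenum and 11.3 between ileum and duodenum, and the members called were 2 between ileum and duodenum. With the index as a covariate and without the duodenum library of mouse 27 (chosen after seeing the data), reversed log2 fold changes were 0.34 (Chgb between colon and duodenum), and the percentages of tested genes called were 17.7 between colon and duodenum and 4.54 between ileum and duodenum, and the members called were 1 between ileum and duodenum. With limma voom and the mouse as a random replicate block, reversed log2 fold changes were 0.045 (Pcsk1 between VSG and S_wm), 0.016 (Pcsk1n between VSG and S_wm) and 0.024 (Scg3 between VSG and S_wm), and the percentages of tested genes called were 0.0264 between S_wm and S_al, 0.00661 between S_wm and S_al in the colon, 0.00661 between VSG and S_al in the colon, 0.0595 between VSG and S_wm and 0.0331 between VSG and S_wm in the duodenum. With DESeq2, reversed log2 fold changes were 0.0034 (Scg5 between S_wm and S_al), and the percentages of tested genes called were 0.0246 between S_wm and S_al in the duodenum, 0.0449 between S_wm and S_al in the ileum, 0.106 between VSG and S_al, 0.0337 between VSG and S_al in the ileum, 0.709 between VSG and S_wm, 0.0926 between VSG and S_wm in the colon, 1.57 between VSG and S_wm in the duodenum, 0.139 between VSG and S_wm in the ileum and 0.0632 for the interaction. With DESeq2 size factors in edgeR, reversed log2 fold changes were 0.0036 (Scg5 between S_wm and S_al), and the percentages of tested genes called were 0.469 between VSG and S_wm in the duodenum. With 5 added to the counts, the log2 ratio was 0.0090 (Scg5 to Pcsk2 between VSG and S_al). With no filter on low counts, the percentages of tested genes called were 0.0124 between S_wm and S_al, 0.00248 between S_wm and S_al in the colon, 0.0594 between VSG and S_wm, 0.0099 between VSG and S_wm in the colon, 0.0223 between VSG and S_wm in the duodenum and 0.00743 between VSG and S_wm in the ileum. With only the libraries of the region, the percentages of tested genes called were 0.0 between S_wm and S_al in the colon, 0.00753 between VSG and S_al in the colon, 0.0 between VSG and S_wm in the duodenum and 0.00756 between VSG and S_wm in the ileum.

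When each mouse was left out in turn, these log2 fold changes and ratios, none called in the full data, ranged over -0.16 to 0.046 (Chga between VSG and S_al), -0.0083 to 0.12 (Chga between ileum and duodenum), -0.12 to 0.11 (Chgb between VSG and S_al), -0.13 to 0.0015 (Chgb between colon and duodenum), -0.018 to 0.066 (Chgb to Chga between VSG and S_al), -0.00084 to 0.23 (Cpe between S_wm and S_al), -0.0087 to 0.083 (Cpe between VSG and S_al), -0.20 to 0.030 (Cpe between VSG and S_wm) and -0.14 to 0.035 (Pam between VSG and S_wm). The others ranged over -0.21 to 0.033 (Pcsk1 between S_wm and S_al), -0.13 to 0.12 (Pcsk1 between VSG and S_wm), -0.18 to 0.12 (Pcsk1n between VSG and S_wm), 0.13 to 0.25 (Pcsk1n to Pcsk1 between S_wm and S_al), -0.13 to 0.032 (Pcsk1n to Pcsk1 between VSG and S_wm), -1.38 to 0.19 (Pcsk2 between S_wm and S_al), -0.73 to 0.15 (Pcsk2 to Pcsk1 between S_wm and S_al), 0.62 to 1.01 (Pcsk2 to Pcsk1 between VSG and S_wm) and -0.29 to 0.055 (Scg2 between VSG and S_wm), and over -0.055 to 0.14 (Scg3 between VSG and S_al), -0.20 to 0.068 (Scg3 between VSG and S_wm), -0.15 to 0.089 (Scg5 between S_wm and S_al), -0.0054 to 0.24 (Scg5 between VSG and S_wm), -0.029 to 0.79 (Scg5 to Pcsk2 between S_wm and S_al), -0.69 to 0.13 (Scg5 to Pcsk2 between VSG and S_al), -0.87 to -0.52 (Scg5 to Pcsk2 between VSG and S_wm) and -1.51 to -0.95 (Scg5 to Pcsk2 between colon and ileum). The percentages of tested genes called ranged over 0.0129 to 0.06 between S_wm and S_al, 0.0 to 0.0195 between S_wm and S_al in the colon, 0.0 to 0.013 between S_wm and S_al in the duodenum, 0.0 to 0.013 between S_wm and S_al in the ileum, 0.0 to 0.039 between VSG and S_al, 0.0 to 0.013 between VSG and S_al in the colon, 0.0 to 0.013 between VSG and S_al in the ileum, 0.127 to 0.26 between VSG and S_wm, 0.0195 to 0.0583 between VSG and S_wm in the colon, 0.0 to 1.47 between VSG and S_wm in the duodenum, 0.00648 to 0.0931 between VSG and S_wm in the ileum and 0.0 to 0.0065 for the interaction. Of the ratios, that of Scg5 to Pcsk2 passed the test without mouse 11 between VSG and S_wm (exact permutation, adjusted p = 0.0159) and without mouse 31 between colon and ileum (exact permutation, adjusted p = 0.0141). The lowest percentage between VSG and S_wm in the duodenum came without mouse 27 and the highest without mouse 31.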
